A study of Arabidopsis thaliana with 4 samples.

Results

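The regions described here are broad runs of high H3K4me3 log ratio: 4 or more tiles in a row, in the order of their IDs, each averaging 1 log unit or more above the array median. They were found in a chromatin immunoprecipitation and array (ChIP-chip) data set from Arabidopsis thaliana, where a tile is an array probe named by its set (TA, TB or TC), its plate and its well. Members were chosen by these measured values themselves: each ChIP replicate was centred on its median over all 21691 probes with a value, the replicates were averaged, and wells with no value were passed over. Plates TA21 to TA51 and TC17 to TC30 were left out of the search. The 182 plates searched held 17357 tiles, and 1586 of these tiles (9.14%) lay in 318 broad runs.

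All material came from untreated whole seedlings of the Col-0 accession, aged 10 days by the sample labels and 10 to 11 days by the growth notes, raised in liquid MS medium at 22 °C with 16 h of light a day. There was 1 group, with 2 ChIP replicates called I and II. Per the labels, immunoprecipitated DNA (IP, H3K4me3 antibody) and its input DNA, 15 ug of each, were amplified, labelled directly with Cy3 and Cy5, and hybridised together on a dye-swap pair of arrays for each replicate, 4 arrays in all. The arrays of a pair held the same value at all 21691 probes, so each pair counted as 1 replicate (n = 2) and each tile has 1 value in I and 1 in II. The labels do not say whether I and II were separate cultures, so their spread may be technical.

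H3K4me3 is histone H3 carrying 3 methyl groups on lysine 4. It is laid down by SET-domain methyltransferases of the Trithorax type, is removed by Jumonji-type demethylases, and in plants as in animals sits over the start of transcribed genes, where it is read by proteins with a PHD finger. In mammalian cells, unusually wide H3K4me3 domains have been described at genes that define cell identity. The sources used here do not give the log base, the direction of the ratio (IP over input or the reverse), the length of DNA a tile covers, or its place in the genome. Runs are therefore measured in tiles and log units, no run is tied to a gene, and calling a run an H3K4me3 domain assumes that the ratio is IP over input and that IDs follow the order of the sequence.

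Broad runs were the smaller part of the high signal. The threshold of 1 log unit was reached by 4439 of the 17357 tiles searched (25.6%), and these formed 1862 runs. Broad runs made up 17.1% of the runs and held 35.7% of the high tiles. Runs of 2 or 3 tiles (973 runs, 2282 tiles) held 51.4%, and 571 single tiles held 12.9%. Run length fell off steeply: 161 of the broad runs had 4 tiles, 75 had 5, 44 had 6, 17 had 7, 12 had 8, 4 had 9, 4 had 10 and 1 had 12. The median length was 4 tiles and the mean was 4.99 ± 1.37 (SD over 318 runs). Runs seldom depended on a gap in the array, since 5 of them passed over a well with no value, never more than 1 well each. A plate end was crossed by 12 runs.

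**Figure D1:**
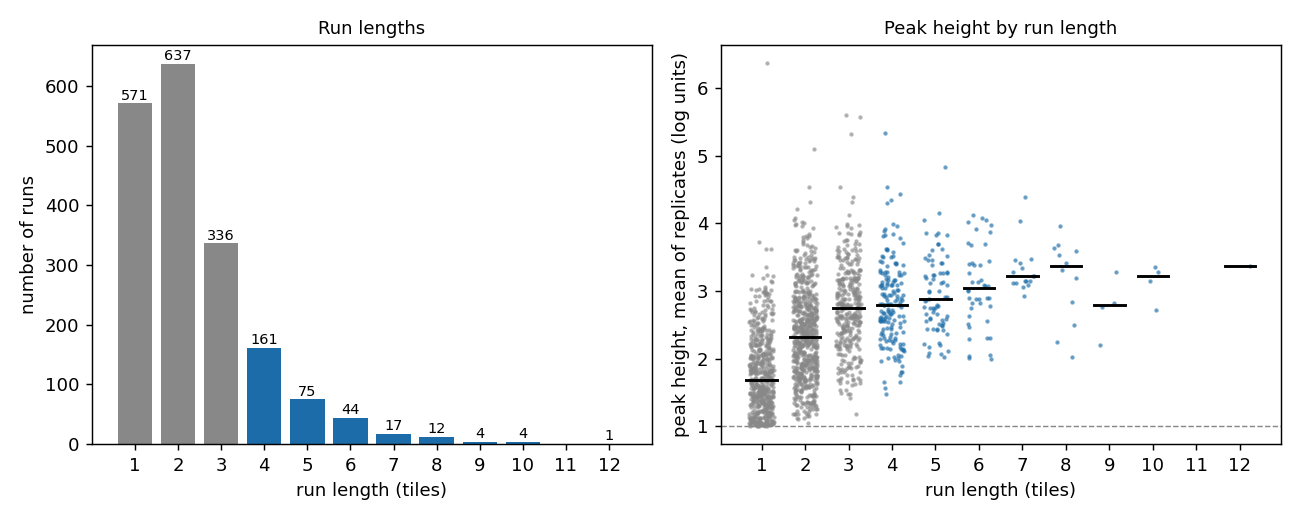
Left, the number of runs of each length among the tiles searched (bars, with the count above each). Right, each run's peak height (dots, mean of the replicates in log units, the dashed line marking the threshold of 1) and the median for each length (black bars). Runs of 4 or more tiles are blue, and the median peak goes from 1.68 for single tiles to 2.79 for runs of 4.

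The longest run, TB21F03 to TB21G02, had 12 tiles, each at 1 log unit or more in both replicates. The greatest length among all broad runs depended on the processing. It was 19 tiles without replicate I, 13 without replicate II and 27 where a single low tile was bridged, not necessarily in this run. In replicate II alone TB21F03 to TB21G02 kept its 12 tiles, with 0.47 at TB21F02 before it and -0.007 at TB21G03 after it. The peak of the run was its first tile, TB21F03, with 3.55 log units in I and 3.19 in II. The 11 tiles after it lay between 1.59 and 2.53 in I and between 1.37 and 2.70 in II. Both replicates had a low point at TB21F07 (mean 1.59) and rose at the next tile, TB21F08, to 2.48 and 2.13. They were low again at TB21F10, with 1.68 and 1.57, and reached 2.34 and 2.70 at TB21F12. Its start differed between the replicates: the tile before it, TB21F02, had 1.45 in I and 0.47 in II, and the next one out, TB21F01, had -0.16 and -0.93.

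The 4 runs of 10 tiles each had a low point between higher tiles in both replicates. Run TB43F05 to TB43G02 had a first high point at TB43F07 (2.01 in I and 2.94 in II), a low point at TB43F09 (1.40 and 1.43) and its peak at TB43F11 (2.96 and 3.74). Its end was uneven between the replicates. The tile after the run, TB43G03, had -0.57 in I and 1.54 in II, and the next, TB43G04, had -0.42 and 2.05. Run TB29C05 to TB29D02 peaked at its second tile, TB29C06 (3.22 and 3.34), fell to 1.21 and 0.86 at TB29C08, and was back at 2.53 and 2.69 at the next tile, TB29C09. It alternated further along, with 1.0 and 1.29 at TB29C10 and 2.86 and 2.07 at TB29C11.

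Run TB71F03 to TB71F12 also peaked at its second tile, TB71F04 (3.01 in I and 3.29 in II). It had 1.34 and 1.36 at TB71F06 and a lower high point of 2.30 and 2.43 at TB71F11. Run TC10H09 to TC11A06 crossed a plate end, and its peak was the first well of the new plate, TC11A01 (2.62 and 2.82). The tile just before the plate end, TC10H12, had 1.35 and 1.57, and the tile after the peak, TC11A02, had 1.53 and 1.29. In these 4 runs the replicates placed the peak on the same tile.

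**Figure D2:**
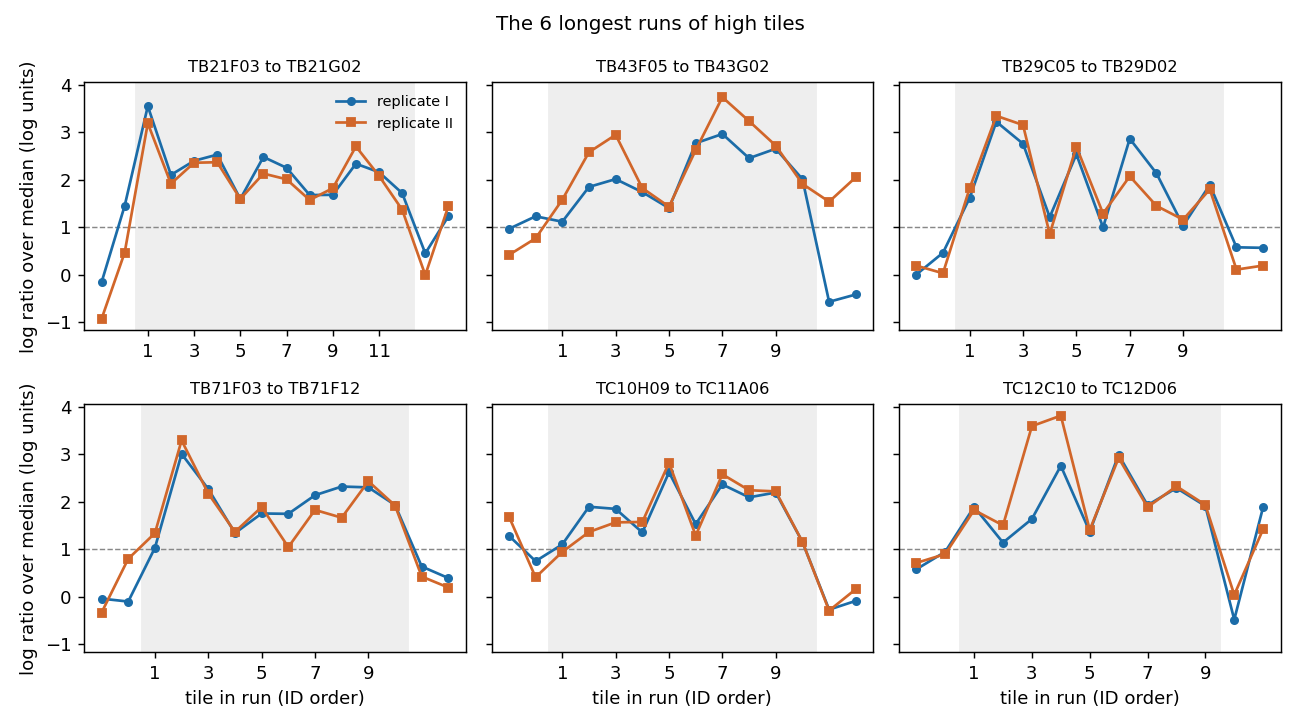
Log ratio over the replicate median (vertical axis, log units) along the 6 longest runs, tile by tile in ID order, with 2 tiles on each side. Circles are replicate I and squares replicate II, the grey field marks the run, and the dashed line is the threshold of 1. The 2 lines rise and fall together in most of the panels, and they part at the end of TB43F05 to TB43G02 and at the third tile of TC12C10 to TC12D06.

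The 4 runs of 9 tiles were less alike. In TC12C10 to TC12D06 the replicates peaked on different tiles: replicate II at TC12D01 (2.75 in I, 3.81 in II) and replicate I at TC12D03 (2.99 in I, 2.92 in II). TC12D02 between them was low in both, with 1.37 and 1.41. Run TA06G01 to TA06G09 had high points at TA06G04 (2.43 and 2.59) and TA06G08 (2.63 and 3.01), with 0.95 and 1.59 at TA06G06. TB90A03 to TB90A11 built up to 2.71 and 2.82 at its sixth tile, TB90A08, while replicate II alone peaked 1 tile earlier. TB70G06 to TB70H02 had the lowest peak of the 4, with a level of 2.18 and 2.23 at TB70H01 and replicate means over its tiles of 1.41 and 1.6. Its plate was high as a whole, with a median over all tiles of TB70 of 0.69 in I and 1.07 in II.

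The 3 highest of the 12 runs of 8 tiles complete the list of the 12 longest. TB43C11 to TB43D06 peaked at TB43D04 (3.47 in I and 4.45 in II), although in replicate I the tile before it, TB43D03, was higher (3.77 in I and 4.07 in II). TB03G04 to TB03G11 had 3 high points, with 2.40 and 2.64 at TB03G04, 2.51 and 2.71 at TB03G08, and 3.40 and 3.96 at TB03G10. Between them lay TB03G06, with 1.2 and 0.84, and TB03G09, with 1.47 and 0.97. TB84F06 to TB84G01 peaked at TB84F09 (3.27 and 4.0) and fell at the next tile, TB84F10, to 1.68 and 1.98.

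Peak height rose with length up to 8 tiles, while the average level was about even from 3 tiles on. The median peak height was 2.79 log units for runs of 4 tiles (SD over runs 0.63), 2.88 for 5, 3.04 for 6, 3.22 for 7 and 3.36 for 8, then 2.79 for 9 (4 runs) and 3.21 for 10 (4 runs), against 1.68 for single tiles, 2.32 for runs of 2 and 2.75 for runs of 3. A longer run offers more tiles from which the highest is taken, so a rise of the peak with length is partly built in. The median of the run means was 1.68 for single tiles, 1.93 for runs of 2, 2.07 for runs of 3, 2.04 for each of the lengths 4 and 5, 2.03 for 6, 2.19 for 7, 1.97 for 8, 1.92 for 9 and 1.97 for 10. Over all 318 broad runs the median peak was 2.91, with quartiles of 2.52 and 3.28, and the lowest and highest were 1.47 and 5.33. The peak tile had a median of 2.80 in I and 3.04 in II. A peak of 3 log units or more was found in 145 broad runs (45.6%), in 217 of the 973 runs of 2 or 3 tiles (22.3%) and in 17 of the 571 single tiles (2.98%). These differences follow the rule that chose the runs and were not tested.

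Among broad runs, the 10 highest peaks lay in runs of 4 to 7 tiles. Higher values occurred outside broad runs, with up to 6.37 for single tiles and 5.59 for runs of 3. At TB15F09, the highest of the broad runs with a mean of 5.33, the level was 4.48 log units in I and 6.19 in II. It stood in a run of 4 tiles, TB15F08 to TB15F11, whose end tiles had 1.99 and 2.29 (TB15F08) and 2.34 and 2.32 (TB15F11), and the tiles just outside were at -0.33 and -0.18 (TB15F07) and -0.08 and 0.44 (TB15F12). TB69F10 had 3.94 and 5.13 in a run of 4. TB07F10 had 4.18 and 4.70 at the first tile of its run, from where the levels stepped down to 2.08 and 1.66 at the last tile, TB07G01.

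TB43A12 had 4.0 and 4.77 at the sixth of 7 tiles, and TB49A09 had 4.20 and 4.39 at the second of 4. TC05B03, with 3.96 and 4.34, was the last tile of a run of 5 that began at 0.90 and 1.54 (TC05A11). TB49B08 (3.77 and 4.46) and TB12A07 (3.70 and 4.46) were each the second tile of a run of 6. These 5 tiles were high in both replicates, with replicate II above replicate I at each.

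In the remaining 2 of the 10 highest, the mean rested mostly on replicate II. TB44C05 had 3.01 log units in I and 6.64 in II, and its neighbour TB44C04 had 2.44 and 5.87, while the other 3 tiles of that run lay between 1.25 and 2.77 in I and between 1.11 and 2.47 in II. TB73H05 had 2.47 in I and 6.23 in II. Replicate I alone gave that run a different peak, TB73H07, with 2.82 in I and 3.05 in II.

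The broad runs with the lowest peaks were flat and near the threshold in the mean. This is set by the rule, since every member tile has a mean of 1 or more. They were not always flat within a replicate. TA94D09 to TA94D12 had the lowest peak, 1.44 in I and 1.5 in II at TA94D10, and 1 of its 4 tiles reached 1 log unit in both replicates. TB73B06 to TB73B09 peaked at 1.37 and 1.74, with 0.25 in I at its first tile, TB73B06, against 1.95 in II. The peaks of TA73C02 to TA73C05, TB04F01 to TB04F04 and TC09G06 to TC09G09 were 1.66, 1.66 and 1.75 in the mean of the replicates. At the threshold itself, the lowest tiles inside broad runs were TA93C01 (mean 1.003), TA60H07 (1.004) and TB67D04 (1.006), and the highest tiles just outside were TB70H08 (0.9999), TB43F04 (0.998) and TB56H11 (0.995). TA93C01 shows what the mean can hide, with 1.71 in I and 0.295 in II.

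The peak lay 1 tile in from an end in 190 of the 318 runs. Of these, 112 were runs of 4, where every inner tile is 1 in from an end. Most peaks in runs of 5 and of 6 also lay there, but not in runs of 7 or more. The peak was an inner tile in 240 runs (75.5%) and an end tile in 78. In runs of 4 the inner tiles held 112 of 161 peaks, where 2 of the 4 positions are inner. In runs of 5 the tiles next to the ends held 42 of 75 peaks, with 28 on the second tile and 14 on tile 4, against 13 on the middle tile. In runs of 6, 26 of 44 peaks lay 1 tile in from an end and 12 on the tiles between. In runs of 7 or more, with 38 runs in all, 10 peaks lay 1 tile in, 25 further in and 3 at an end. End tiles border tiles below the threshold, so a lower level at the ends is partly set by the rule.

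The level followed the same pattern in each replicate. In runs of 6 the medians by position in replicate I were 1.63, 2.50, 1.87, 1.83, 2.20 and 1.77 log units from first to last, and in replicate II they were 1.71, 2.43, 1.98, 1.99, 2.34 and 1.86. Over the 157 runs of 5 or more tiles, end tiles had a median of 1.72 in I and 1.85 in II, tiles next to the ends 2.22 and 2.34, and tiles further in 1.93 and 2.11. Most of these runs had 5 or 6 tiles. In the 17 runs of 7 the highest median lay further in, with 2.65 in I and 2.95 in II at the fifth tile. The tiles next to the ends had 2.03 and 2.06 (second) and 2.46 and 2.38 (sixth). ID order showed no common direction: the peak fell before the middle in 157 runs, on the middle tile in 15 and after the middle in 146. Strand cannot be read from the IDs, so runs of either orientation are pooled here.

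**Figure D3:**
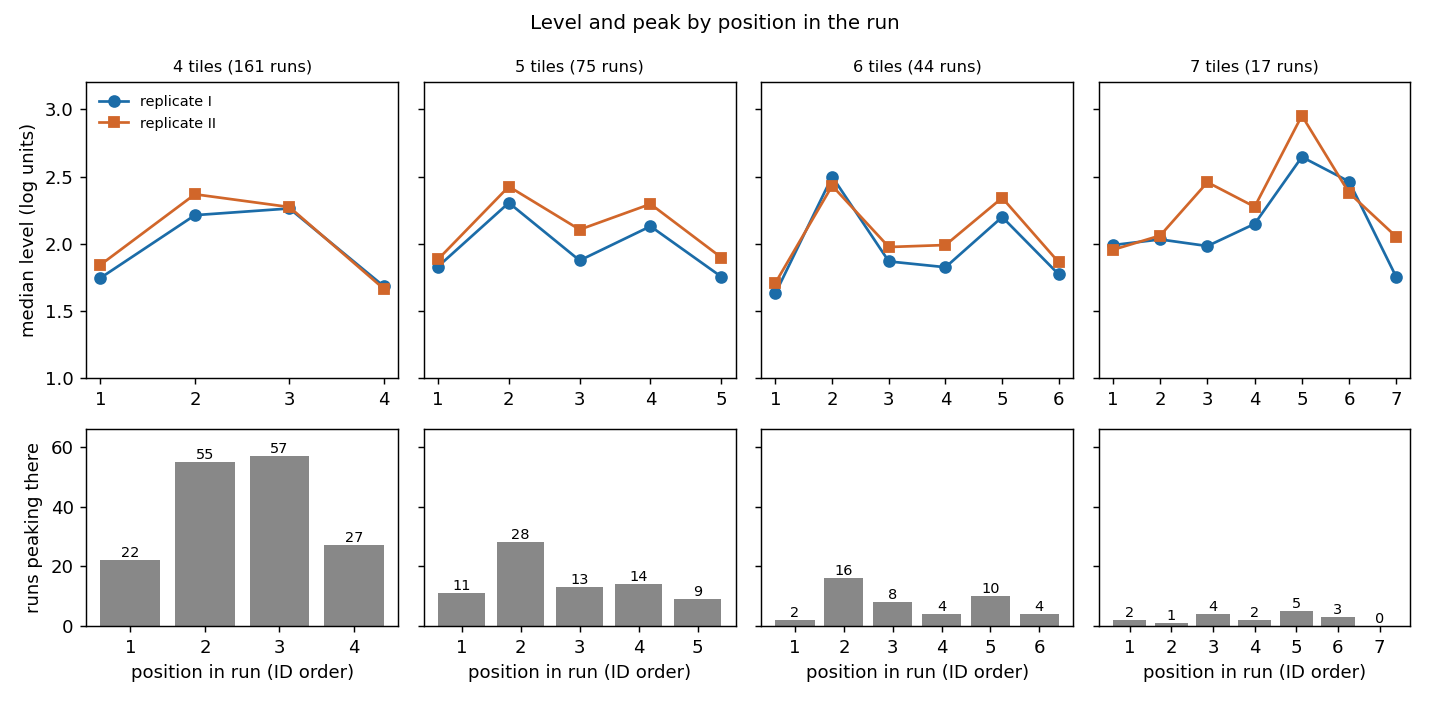
Runs of 4, 5, 6 and 7 tiles. The upper row gives the median log ratio at each position in ID order (circles replicate I, squares replicate II), and the lower row the number of runs whose peak lies there. In runs of 5 and of 6 both replicates are higher next to the ends than in the middle, and in runs of 4 the inner tiles hold 55 and 57 of the 161 peaks. In runs of 7 both replicates are highest at the fifth tile.

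Many of the longer runs had more than 1 summit. Summits were counted as separate where a tile between them was lower than both by at least 0.5 log units in the mean, in replicate I and in replicate II. By this definition 96 broad runs (30.2%) had 2 or more summits: 15 of 161 runs of 4 tiles (9.32%), 26 of 75 runs of 5 (34.7%), 27 of 44 runs of 6 (61.4%) and 28 of 38 runs of 7 or more (73.7%). Longer runs offer more places for a dip. The tiles on either side of the deepest dip, taken as the first such pair in ID order, were 2 apart in 38 of the 96. They were 3 apart in 34 and 4 or more apart in 24. These tiles need not be the highest points of the summits. In TB43F05 to TB43G02 they were TB43F07 and TB43F10, while the peak was TB43F11. The smallest of the 3 dips in a run (mean, I, II) had a median of 0.85 log units over the 96 runs and reached 1.67. Runs with 2 or more summits had a median peak of 3.10, against 2.82 for the other 222. They were also longer, and the peak rose with length, so the difference is not separated from length. A dip of 0.5 log units that stays at 1 or more also needs higher summits, so part of the difference is built in.

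The replicates had the peak on the same tile in most of the runs. Since members were chosen by the mean of the replicates, their level in both is largely set by the rule and is given as a description. Of the 1586 member tiles, 1397 (88.1%) were at 1 log unit or more in both replicates, 98 were below 1 in replicate I and 91 below 1 in replicate II. The share at 1 or more in both was 87.6% in runs of 2 or 3 tiles and 76.5% in single tiles. In 175 runs (55.03%) every tile was at 1 or more in both. Only 3 member tiles were below 0 in a replicate. The replicates peaked on the same tile in 205 runs (64.5%), on neighbouring tiles in 61 and 2 or more tiles apart in 52. Agreement on the peak tile was 65.8% in runs of 4, which offer 4 positions, 62.7% in runs of 5 and 63.4% in runs of 6 or more. Across the 318 runs, which share the same 2 hybridised pairs, the Pearson correlation between the run means in I and in II was 0.612. The threshold narrows the range of these means.

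Replicate II was the higher in 204 runs and replicate I in 114. The median of II minus I over runs was 0.11 log units, with an SD of 0.39. The run means differed by 1 log unit or more in 13 runs, and replicate II was the higher in all 13. The largest difference was in TB34F06 to TB34F09, where TB34F08 had 0.95 in I and 6.21 in II and TB34F09 had 1.75 and 4.84, while TB34F06 (1.39 and 1.47) and TB34F07 (1.25 and 1.12) agreed. In TA60E02 to TA60E05 no tile reached 1 in replicate I, where values ran from 0.52 to 0.95, against 1.69 to 2.98 in replicate II. All of plate TA60 was offset the same way, with a median over its tiles of 0.29 in I and 0.87 in II. The part of this offset in the run was not tested. In TB67D04 to TB67D07 the second tile, TB67D05, had -0.36 in I and 3.98 in II. The other 2 of the 5 largest differences were in the runs of TB73H05 and TB44C05 described above.

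A reading that the choice of members does not fix was had by finding runs on 1 replicate and reading them in the other. Replicate I alone gave 322 runs of 4 or more tiles. In replicate II, 1406 of their 1617 tiles (87.0%) were at 1 log unit or more, against 26.8% of all tiles searched. The median of these tiles in replicate II was 1.98, against 0.14 for all tiles. Every tile was at 1 or more in replicate II in 177 of the 322 runs (54.97%), and no tile was in 1 run. The mean in replicate II was at 1 or more in 318 of the 322 runs.

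With the roles exchanged, replicate II alone gave 319 runs, and 1407 of their 1646 tiles (85.5%) were at 1 or more in replicate I, against 25.9% of all tiles. At the tile that was the peak in the finding replicate, the median was 2.92 in replicate II for runs found on I and 2.67 in replicate I for runs found on II. The peak was on the same tile in 65.8% and 63.01% of the runs. Runs of 2 or 3 tiles found on replicate I had 85.7% of their tiles at 1 or more in replicate II, and single tiles had 77.8%. For runs found on replicate II and read in I the shares were 86.6% for runs of 2 or 3 tiles, above the 85.5% of broad runs, and 64.2% for single tiles. Neighbouring tiles are not independent, so these shares are given without a test over tiles.

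At each edge of a run the level steps down from 1 or more to below 1 by the rule, so only the size of the step is described. The step from an end tile to the tile outside had a median of 1.5 log units (SD over 636 edges 0.69), with 1.45 in I and 1.59 in II. For runs of 2 or 3 tiles it was larger, 1.62, and for single tiles 1.35. The tile just outside a broad run was below 0 at 165 edges (25.9%) and between 0.5 and 1 at 215 edges (33.8%). At 2 tiles from the run the median level was 0.081 log units, lower than the 0.303 next to the run and also lower than the 0.13 of all tiles searched. The tile between is below 1 by the rule, so this level is not fully free of it.

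High tiles were scarce just outside a run and more frequent a little further out. The tile next to a run is below 1 by the rule. Neighbouring tiles are not independent, so a low share at 2 tiles may partly follow from the rule as well. At 2 tiles from a broad run 19.5% of the tiles had a mean of 1 or more, at 3 tiles 25.8%, at 4 tiles 30.5% and at 5 tiles 35.4%, against 25.6% over all tiles searched. From 6 to 10 tiles the share lay between 29.8% and 30.8%, and it was 24.7% at 12. The 25.6% covers all plates, also those with no broad run and few high tiles, such as TA97 with 0 of 96. Plate TB60, where 5 broad runs start, had 49 high tiles of 96. A share over only the plates that hold runs was not computed. Around runs of 2 or 3 tiles the share was 14.1% at 2 tiles and 29.99% at 5, and around single tiles it was 14.7% and 28.7%. The tile 5 places away was high at 33.6% of the runs before them in ID order and at 37.1% after them. Low tiles, with a mean of -1 or less, made up 0.79% of the tiles 2 places from a broad run and 2.52% of those 5 places away, against 2.87% of all tiles searched.

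**Figure D4:**
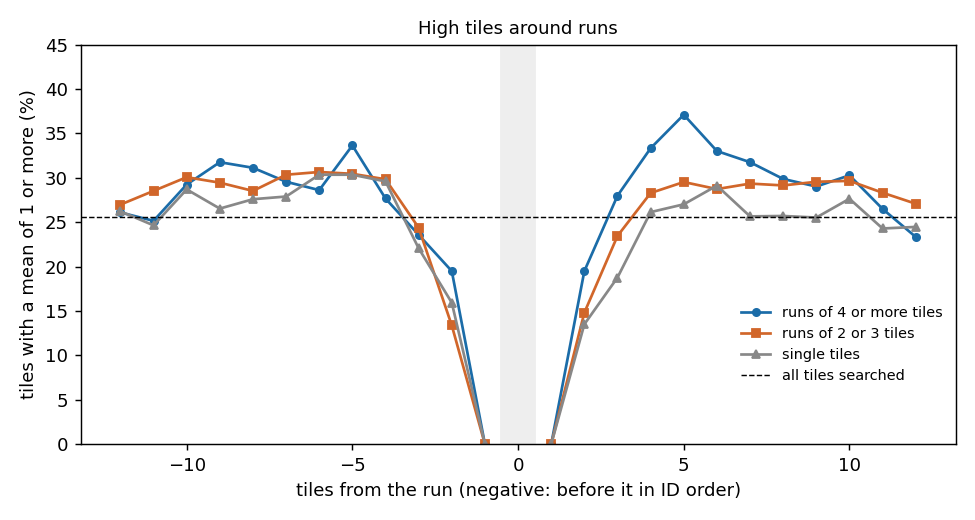
Share of tiles with a mean of 1 or more (vertical axis, percent) at 1 to 12 tiles before (negative) and after (positive) runs in ID order, for broad runs (circles), runs of 2 or 3 tiles (squares) and single tiles (triangles). The dashed line is the 25.6% of all tiles searched, and the share is 0 next to a run by the rule. Around broad runs it rises to 33.6% and 37.1% at 5 tiles.

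Spacing between broad runs was wide and skewed. Over the 314 pairs of neighbouring broad runs within a set, the median gap was 29 tiles, with quartiles of 11 and 63.3 and a range of 1 to 505. A gap of 10 tiles or fewer separated 73 pairs (23.2%), and a gap of over 100 tiles separated 49 (15.6%). In 58 pairs no other high tile lay between the runs. Over all 314 pairs, the median number of runs of 2 or 3 tiles between the members was 2. The median number of single tiles between them was 1.

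A single tile below the threshold separated 19 pairs. The mean at that tile ran from -0.22 to 0.97 log units, with a median of 0.66. Of the 5 such pairs with the highest peaks, TB49B02 to TB49B05 (peak 3.28 and 3.75 at TB49B03) and TB49B07 to TB49B12 (peak 3.77 and 4.46) were parted by TB49B06, with 1.03 in I and 0.91 in II. TB50G03 to TB50G08, with a peak of 3.69 and 4.27 at TB50G07, and the lower run TB50G10 to TB50H01, with 1.30 and 2.62 at TB50G11, were parted by TB50G09, at 0.26 and 0.43. TB03G12, with 0.81 and 0.50, stood between the run of 8 described above and TB03H01 to TB03H04, whose peak had 2.27 and 2.76.

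In the other 2 pairs, TB77G01 (1.2 and 0.68) stood between TB77F08 to TB77F12, with a peak of 3.10 and 4.10 at TB77F09, and TB77G02 to TB77G06, with 2.38 and 2.50 at TB77G03. TA81F04 (0.48 and 0.50) stood between TA81E12 to TA81F03 and TA81F05 to TA81F09, whose peaks were 2.06 and 2.89 at TA81F03 and 3.22 and 3.76 at TA81F07. In these 5 pairs the separating tile was above the median of all tiles in both replicates. Whether such a pair is counted as a single domain turns on where the threshold is set.

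The 3 widest gaps were of 505 tiles between TA60H07 to TA61A01 and TA66C04 to TA66C07, 281 between TA66F05 to TA66F09 and TA69F06 to TA69F10, and 277 between TC02B06 to TC02B09 and TC05A11 to TC05B03. They were not empty of high tiles. The widest held 18 runs of 2 or 3 tiles and 20 single tiles, and the lowest mean in it was -1.63. The run that ends it, TA66C04 to TA66C07, had a modest peak of 2.36 and 2.37 at TA66C05.

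The number of broad runs per tile differed between the sets, and so did the level of all their tiles. There were 17.4 runs per 1000 tiles in plates TA01 to TA20 (33 runs), 10.02 in TA52 to TA99 (46 runs), 21.7 in TB00 to TB99 (208 runs) and 24.2 in TC00 to TC13 (31 runs). The share of all tiles with a mean of 1 or more went the same way, with 26.9%, 16.8%, 28.5% and 33.5%. The median of all tiles was 0.12 in I and 0.21 in II for TA01 to TA20, -0.00029 and -0.065 for TA52 to TA99, 0.21 and 0.24 for TB, and 0.36 and 0.26 for TC00 to TC13. Single plates differed more widely: the median of all tiles was 1.19 in I and 1.03 in II on TC13 (34 tiles), and -0.27 and -0.44 on TA97. With each plate's median removed, the broad runs went from 318 to 209 and their median spacing from 29 to 58 tiles. The part of the high tiles that lay in broad runs was closer between the sets, at 34.2%, 29.1%, 37.9% and 35.8%. The median peak height was also close, at 2.86, 2.75, 2.94 and 2.91 log units. Plates are not replicates, so these differences were not tested. Of the 182 plates, 36 had no broad run starting on them and 2 had 6, TB87 and TC07.

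**Figure D5:**
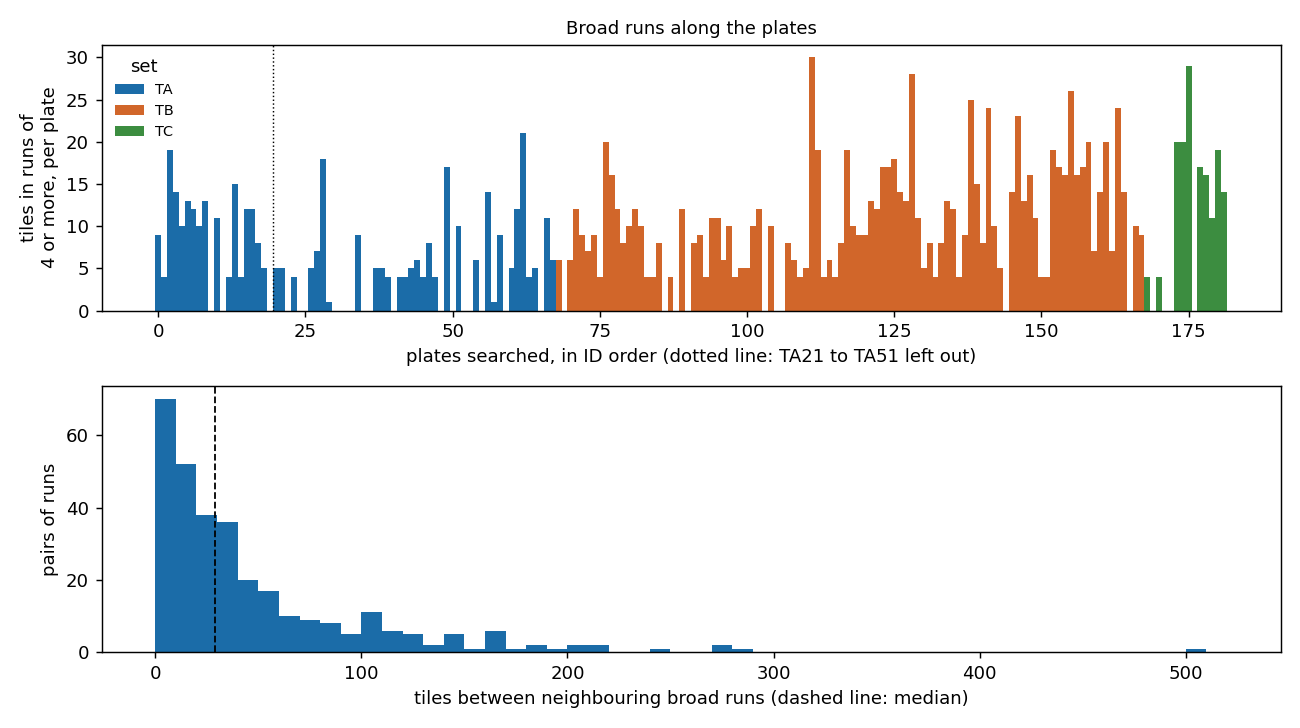
Upper panel, the number of tiles in broad runs on each plate searched, in ID order, coloured by set. Lower panel, the number of pairs of neighbouring broad runs by the number of tiles between them, in bins of 10 tiles, with the median of 29 as a dashed line. The plates of TA52 to TA99 hold few member tiles, with 4.88% of their tiles in broad runs against 10.8% in TB.

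Some plates and wells were offset between the replicates, and the part of these offsets in the runs was not tested beyond the values given. Plate offsets went either way: the median of all tiles was 0.87 in I and 1.38 in II on TB60, and 0.68 and 0.27 on TC06. In plates TA01 to TA10 the median of all tiles was 0.066 in I and 0.598 in II on odd plates, and 0.250 and -0.060 on even plates. The 12 broad runs starting on those odd plates had a median II minus I of 0.15 (range -0.19 to 0.61), and the 8 on even plates one of -0.01 (range -0.60 to 1.29). Among the 4 classes of wells by odd or even row and column, the median of all tiles ran from 0.13 to 0.18 in replicate I and from 0.033 to 0.29 in replicate II. The share of tiles in broad runs was between 8.90% and 9.50% in these classes. The same rule on the lower side, a mean of -1 or less, gave 10 runs of 4 or more tiles, which held 53 of the 498 such tiles (10.6%). Low tiles were 2.87% of the tiles searched and high tiles 25.6%, so runs form more easily on the high side and the counts of both sides are not compared.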

How the data were processed

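The authors deposited 1 log ratio per array and probe. The sources used here state no log base, direction, centring or normalisation: whether the deposited values are log2 is not known, no step here uses a base, and values are called log units. The median as deposited was -1.91 for I and -0.90 for II. Of 21800 probes, 109 had no value. Scanner intensities were not used here, which leaves signal over background unknown, and with 2 replicates the precision is limited.

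The median of each replicate was subtracted and both were averaged. Tiles were put in ID order, and runs at 1 log unit or more were found in Python 3.11.15 with numpy 2.4.6 and pandas 2.3.3. The run finder was tested on simulated data. Sets TD and PD were left out by the rule. No plate-and-well ID matched the RefSeq gene table (0 matches), so no gene or sequence is given. Members and lists were chosen with earlier results of these data known. No p-value was computed, because the runs were chosen on the values described. Named runs are the 12 longest, the 10 with the highest and 5 with the lowest peak, the 5 closest pairs (ties settled by the higher peak, a choice made after seeing the data), the 3 most distant pairs and the 5 whose replicates differ most. Tiles TA93C01, TA60H07, TB67D04, TB70H08, TB43F04 and TB56H11 are the nearest to the threshold. Each of 8 results was recomputed under up to 17 alternatives of centring, scale, threshold, run definition, plates and wells, and with each replicate left out.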

Additional observations from a re-analysis of the deposited data

How the results depend on the processing

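Of 131 alternative values for 8 results, 84 stayed within the limits set and 47 did not. The limit was 1.5 times for counts and the longest run. It was a 95% exact binomial interval over the 318 runs for the shared peak tile, and the SD of the replicates for the rest. That interval treats runs as independent, although they share the same hybridised pairs. The limits are of unlike kinds, so 84 and 47 are not a uniform measure of stability. The choice of 0 and of the threshold moved the counts most. Without centring, where 0 lies above both medians, 17 broad runs were left with 73 tiles, the longest of 5, a median peak of 1.94, 70.6% inner peaks, 52.9% shared peak tiles, a spacing of 416 tiles and a cross-replicate share of 100% of 4 tiles. At a threshold of 1.5 there were 123 runs, 551 tiles, 65.9% inner peaks and a spacing of 78. At 0.75 there were 447 runs, inner peaks were 81.4%, the spacing was 22 and the cross-replicate share 88.6%. Centring on the mode gave 430 runs, 80.7% inner peaks and a spacing of 22.5. Runs of 3 or more gave 654 runs, 2594 tiles, 69.9% inner peaks, 73.2% shared peak tiles and a spacing of 13. Runs of 5 or more gave 157 runs, 942 tiles, 81.5% and a spacing of 69. Requiring 1 in both replicates gave 225 runs and 1086 tiles, 78.2% inner peaks and a spacing of 38. Removing plate medians left 209 runs and 988 tiles, a median peak of 2.71, 74.2% inner peaks and a spacing of 58, and 199 of the 318 runs shared a tile with these. Bridging a single low tile gave 419 runs, 2538 tiles, a longest run of 27 and 73.5% inner peaks. The spacing was then 22 and the cross-replicate share 79.3%, lower by construction. Removing well class medians gave 76.1% and a spacing of 27. Inner peaks were 74.4% with all plates kept, 74.6% with runs ended at plate ends and 76.4% with scaled replicates, against an SD of 0.67 points. The cross-replicate share was 85.5% with roles exchanged. Leaving out a replicate gave longest runs of 13 to 19 and 76.5% to 76.7% inner peaks. Without replicate I, 268 of the 318 runs shared a tile with a broad run, and without replicate II 274 did. Where a cause is not given by the construction of the alternative, it was not tested.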

Other observations

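Sets TD and PD were outside the search. Read in ID order by the same rule, the 96 TD probes held 1 run of 4 tiles, TD01F10 to TD01G01, with a peak of 3.75 log units in I and 4.30 in II at TD01F12. The 315 PD probes held 2 runs of 4 tiles. PD01E11 to PD01F02 peaked at PD01F01 with 3.82 and 5.0, and PD04C02 to PD04C05 peaked at PD04C03 with 3.13 and 3.48. In these 3 runs the replicates peaked on the same tile, the third, the third and the second of 4. The plates left out of sets TA and TC held 14 runs of 4 or more among 3923 tiles, the longest of 8 tiles.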
